A study of Gallus gallus with 6 samples.

Results

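The genes described here are the Wnt ligands, their receptors and co-receptors, the secreted antagonists, the R-spondins with their LGR receptors, and the proteins that carry the signal from the membrane to the nucleus. They were taken by gene symbol from the deposited gene table, which gave 54 genes of 23873. The samples are 6 polyA RNA sequencing libraries from chicken primordial germ cells (PGCs) in culture, the cells of the embryo that later form eggs or sperm. Somatic differentiated PGCs, which had attached to the dish and were grown for 2 to 3 further weeks after the floating cells were aspirated, gave 3 libraries. Undifferentiated PGCs, which grow in suspension, gave the other 3 libraries. All cells were derived from embryonic blood at stage 16 to 16+ of the Hamburger-Hamilton series. Both groups share a medium with chicken serum and human FGF2 (10 ng/mL), to which the ROCK inhibitor H1152 and the myosin inhibitor blebbistatin were added at 0.2 μM each. The labels name no added Wnt ligand or Wnt inhibitor, give no sex or genotype, and do not say whether the libraries of a group came from separate cultures, so p-values measure the spread between these libraries.

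Wnt proteins are secreted lipid-modified ligands that bind Frizzled receptors. With the co-receptors LRP5 or LRP6, they recruit Dishevelled and Axin to the membrane, which stops the destruction of beta-catenin and lets it act with TCF/LEF factors on target genes. Other Wnt proteins, with WNT5A as the best known, signal through Frizzled and ROR receptors to the cytoskeleton without beta-catenin. R-spondins raise the number of Frizzled receptors at the surface through LGR receptors, whereas DKK and SFRP proteins restrain the ligands or their receptors. In the chick embryo, Wnt signals act in the primitive streak and later in the neural crest, limb bud and somites.

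Values are transcripts per 1000000 (TPM), which are corrected for transcript length, so levels of different genes may be set side by side. TPM keeps no read counts, so sequencing depth is unknown and no detection limit is given. The libraries held 12342 to 12993 genes at 1 TPM or more. On log2(TPM + 1), across genes, libraries correlated at 0.955 to 0.962 within somatic differentiated cells, 0.962 to 0.986 within undifferentiated cells and 0.856 to 0.898 between the groups. Undifferentiated library 2 stood apart from undifferentiated libraries 1 and 3. It had the fewest genes at 1 TPM, and for 39 of the 53 Wnt genes listed above 0 in its group it held the lowest value of the 3 libraries. The matching share over all genes was not computed. Across genes, the median ratio to the geometric mean of the 6 libraries was 0.878 in this library. It was 1.14 and 1.09 in undifferentiated libraries 1 and 3, so lower values were not particular to the Wnt genes. Germ cell genes lay lower and mesenchymal genes higher in somatic differentiated cells. The 10 germ cell genes summed to 1595 to 2276 TPM in somatic differentiated and 6052 to 6672 TPM in undifferentiated libraries. The 12 mesenchymal genes, with vimentin (VIM) far ahead, summed to 21129 to 28831 TPM and 1965 to 2560 TPM in the same order of groups. Both lists were chosen with earlier results of these data known, so they give no independent check of the labels.

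Each gene with a mean of at least 1 TPM over the 6 libraries was tested with limma on log2(TPM + 1). It was called when the Benjamini-Hochberg adjusted p, over 12996 genes, was under 0.05 and the log2 change was at least 1 in either direction. Changes on this scale understate those of genes with low TPM. Of the 54 Wnt genes, 44 were tested: 11 were called higher in somatic differentiated cells, 8 were called lower and 25 were not called. Over all genes tested, 13.2% were called higher, 7.77% lower and 21% in either direction. By adjusted p alone, 12 Wnt genes passed as higher and 10 as lower, beside 17.9% and 22% of all genes tested. Whether called or not, all somatic differentiated values lay above all undifferentiated ones for 17 of the 44 tested Wnt genes and below them for 13, beside 25% and 30.6% of all genes tested. The Wnt genes had a median log2 change of 0.42, and all genes tested had a median of -0.11. Of the 44, 10 reached the minimum through a mean of at least 1 TPM in 1 group alone. These were 6 in somatic differentiated and 4 in undifferentiated cells, and 5 of the 10 were called. WNT10A, RSPO1 and LGR6 were called higher, and WNT8A and FZD10 lower. Each was taken in through the group where it was high, so its call is not independent of the filter. The counts thus describe the genes tested and not all 54. Without undifferentiated library 2, 7 were called higher and 9 lower, and the counts over all genes moved as well, to 1423 higher and 1467 lower, against 1721 and 1010 with all libraries. In bulk RNA, fewer cells of a type and less RNA per cell cannot be told apart.

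**Figure D1:**
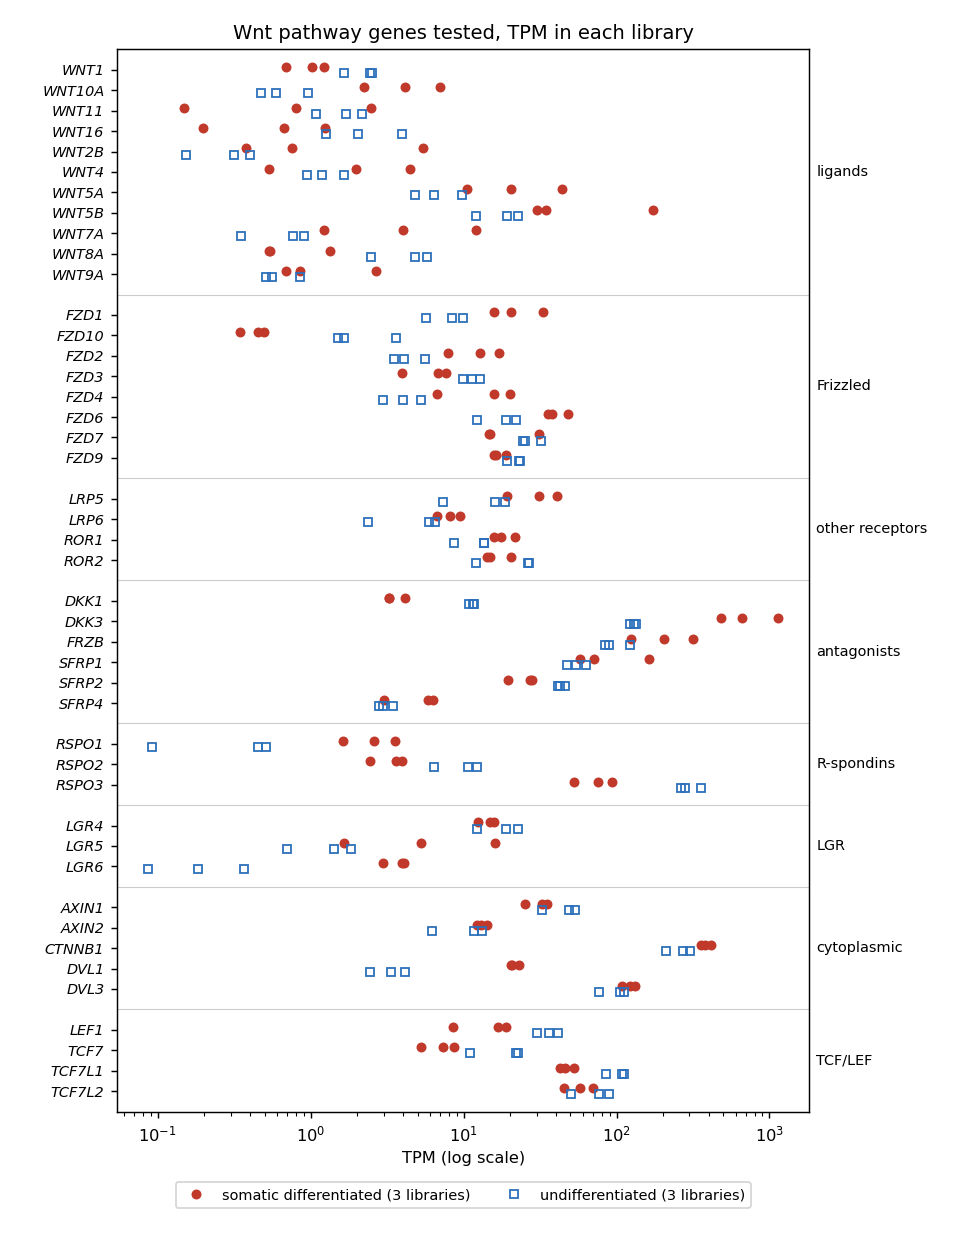
TPM of the 44 tested Wnt genes in each library, on a log scale. Red circles are the 3 somatic differentiated and open blue squares the 3 undifferentiated libraries. DKK3 lies highest in somatic differentiated cells, at 485 to 1134 TPM, and RSPO3 lies at 52.7 to 92.8 TPM in somatic differentiated and 264 to 357 TPM in undifferentiated cells.

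Among the 19 Wnt ligands, WNT5A and WNT5B, both ligands of beta-catenin-independent signalling, held most of the transcript in every library. Of the 11 tested ligands, 2 were called higher (WNT5A and WNT10A), 1 was called lower (WNT8A), and 8 were not called. Beside them, 13.2% of all genes tested were called higher and 7.77% lower. WNT5A (ENSGALG00000034168, chromosome 12, 8303804 to 8315223) had values of 43.8, 10.6 and 20.6 TPM in the somatic differentiated libraries, against 9.73, 4.84 and 6.40 TPM in the undifferentiated libraries, each in the order of libraries 1, 2 and 3. All somatic differentiated values lay above all undifferentiated ones, although library 2 exceeded the highest undifferentiated value only narrowly. The log2 change was 1.53 (SE 0.49, limma adjusted p 0.0455). WNT5A passed the test by a small margin: the call was lost with any library left out except somatic differentiated library 2, at 1.03 without somatic differentiated library 1 (limma adjusted p 0.0972).

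WNT5B (chromosome 1, 60852680 to 60917603) was the most abundant ligand in 5 of the 6 libraries, and WNT5A in the remaining one, somatic differentiated library 1. Its values were 34.7, 30.04 and 174 TPM in somatic differentiated libraries, against 22.6, 11.98 and 19.1 TPM in undifferentiated libraries. The groups did not overlap, but somatic differentiated library 3 stood far above the other 2 of its group. Its log2 change of 1.66 had a 95% interval of 0.13 to 3.19 and a limma adjusted p of 0.0796, so WNT5B was not called. WNT5B overlaps FBXL14 on the opposite strand, which averaged 13.1 TPM in somatic differentiated and 12.6 TPM in undifferentiated cells, and the strand setting of the counting is not given in the sources used here.

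The 17 ligands other than WNT5A and WNT5B had group means of at most 5.76 TPM. WNT10A (chromosome 7, 22386125 to 22397621), a beta-catenin ligand known from skin appendages and teeth, measured 6.99, 4.14 and 2.25 TPM in somatic differentiated libraries and 0.595, 0.472 and 0.957 TPM in undifferentiated libraries. It was called higher (log2 change 1.62, limma adjusted p 0.0118) with no overlap between groups. WNT8A (chromosome 13, 15042075 to 15046001), a ligand of the early embryo's streak and margin, measured 0.544, 0.537 and 1.33 TPM in somatic differentiated libraries and 5.79, 2.48 and 4.82 TPM in undifferentiated libraries. It was called lower (-1.55, limma adjusted p 0.0106), again without overlap, and it was the third most abundant ligand of undifferentiated cells. With a pseudocount of 5 TPM neither WNT10A (0.71) nor WNT8A (-0.68) reached the minimum change, as both are low. Each passed the filter only through the group where it was high.

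Several low ligands depended on 1 somatic differentiated library. WNT7A measured 4.02, 1.22 and 12.02 TPM in somatic differentiated libraries and 0.350 to 0.905 TPM in undifferentiated libraries (log2 change 1.67, limma adjusted p 0.063). The groups did not overlap, and WNT7A was called when somatic differentiated library 2 was left out (2.29, limma adjusted p 0.0146). WNT2B reached 5.45 TPM and WNT7B 4.10 TPM in somatic differentiated library 3, while both were at or under 0.755 TPM in every other library. Library 3 held the highest value of its group for 9 of the 19 ligands, libraries 1 and 2 for 5 each. Over all 54 Wnt genes each of these libraries was highest for 18, and the share over all genes was not computed. WNT1 (0.689 to 1.22 TPM in somatic differentiated, 1.64 to 2.52 TPM in undifferentiated libraries) and WNT16 (0.198 to 1.24 TPM and 1.26 to 3.95 TPM in the same order) had log2 changes of -0.69 and -0.98. Their limma adjusted p values were 0.0536 and 0.075, so neither was called, although for both the groups did not overlap. WNT16 was called without undifferentiated library 2 (-1.24, limma adjusted p 0.0403).

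The remaining ligands were low in both groups. WNT4 (0.537 to 4.45 TPM in somatic differentiated and 0.944 to 1.66 TPM in undifferentiated libraries), WNT9A (0.688 to 2.66 TPM and 0.507 to 0.853 TPM) and WNT11 (0.148 to 2.48 TPM and 1.08 to 2.17 TPM) were tested and overlapped between groups. WNT2B overlapped too, at 0.379 to 5.45 TPM in somatic differentiated and 0.152 to 0.402 TPM in undifferentiated libraries. Below the minimum for testing were WNT2, WNT3, WNT3A, WNT6, WNT7B, WNT8B, WNT9B and WNT11B. WNT8B was listed at 0 in every library except somatic differentiated library 2, and WNT9B at 0 in 4 of the 6. Of the ligands not tested, WNT2 did not overlap between groups, at 0.180 to 0.822 TPM in somatic differentiated and 0.910 to 1.46 TPM in undifferentiated libraries.

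The table holds 3 pairs of neighbouring ligand genes. On chromosome 7, WNT10A and WNT6 lie 5218 bases apart on the same strand. WNT10A was called higher, whereas WNT6 stayed under the minimum for testing, at 1.02, 0.419 and 0.509 TPM in somatic differentiated libraries and 1.07, 1.00 and 1.06 TPM in undifferentiated libraries. WNT3A and WNT9A, 30952 bases apart on chromosome 2, and WNT9B and WNT3, 13420 bases apart on chromosome 27, lie on opposite strands, and none of these 4 exceeded 2.66 TPM in any library. Coordinates are those of the deposited table, whose build is GRCg6a per the submitters' processing notes.

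The summed TPM of all 19 ligands was 99.8, 55.1 and 227 in somatic differentiated libraries, against 54.3, 29.0 and 44.1 in undifferentiated libraries. Somatic differentiated library 2 exceeded undifferentiated library 1 by less than 1 TPM, so the totals were barely separated. The mean was 127 ± 89.1 TPM in somatic differentiated and 42.5 ± 12.7 TPM in undifferentiated cells (SD, n = 3). Without somatic differentiated library 3 the somatic differentiated mean was 77.5 TPM and the difference between groups 34.96 TPM, against 84.8 TPM with all libraries. WNT5B made up 55.3% ± 20.9 of the ligand total in somatic differentiated and 42.1% ± 1.14 in undifferentiated cells, and WNT8A 0.702% ± 0.237 and 10.04% ± 1.30 (SD, n = 3, same order).

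**Figure D2:**
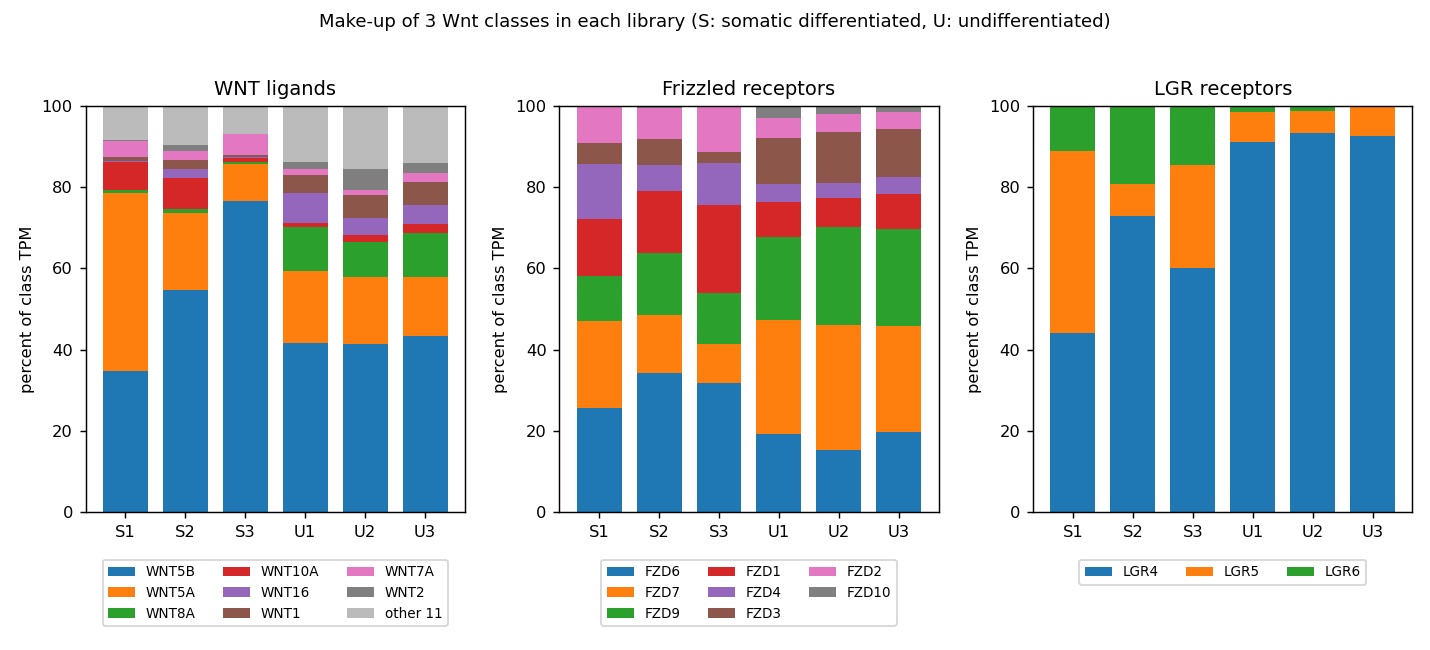
Share of each gene in the summed TPM of the WNT ligands, Frizzled receptors and LGR receptors, in percent, for somatic differentiated libraries S1 to S3 and undifferentiated libraries U1 to U3. LGR4 holds 59.0% on average in somatic differentiated and 92.3% in undifferentiated cells, and the 3 somatic differentiated libraries differ more among themselves in ligand make-up than the undifferentiated ones do.

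Frizzled receptors, the membrane receptors that bind Wnt proteins, moved in both directions. Of the 8 listed, all were tested: FZD1, FZD2, FZD4 and FZD6 were called higher, FZD10 was called lower, and FZD3, FZD7 and FZD9 were not called. Among all genes tested, 13.2% were called higher and 7.77% lower. FZD6 (chromosome 2, 129255284 to 129282543), which takes part in planar polarity, measured 37.8, 35.7 and 48.4 TPM in somatic differentiated libraries and 22.0, 12.2 and 19.0 TPM in undifferentiated libraries. It was the most abundant Frizzled of every somatic differentiated library, whereas FZD7 was that of every undifferentiated one. The log2 change of FZD6 was 1.18 (SE 0.25, limma adjusted p 0.00992), and it fell short of the minimum change, at 0.94, without undifferentiated library 2.

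FZD1 (chromosome 2, 22134540 to 22136747) measured 20.3, 15.8 and 32.9 TPM in somatic differentiated libraries, against 9.88, 5.66 and 8.37 TPM in undifferentiated libraries (log2 change 1.39, limma adjusted p 0.0136). FZD2 (chromosome 27, 3904120 to 3905793), a close relative of FZD1 and FZD7, measured 12.8, 7.95 and 17.1 TPM in somatic differentiated libraries, against 5.56, 3.53 and 4.11 TPM in undifferentiated libraries (1.29, limma adjusted p 0.0157). Both had no overlap between groups and were lowest in somatic differentiated library 2. FZD4 (chromosome 1, 190012922 to 190017357), which also serves as the receptor of norrin, measured 20.1, 6.73 and 15.8 TPM in somatic differentiated libraries and 5.23, 2.98 and 4.04 TPM in undifferentiated libraries (1.48, limma adjusted p 0.0243). Library 2 was again lowest. FZD1 was called under every alternative that kept the minimum change. FZD2 was not called without somatic differentiated library 1 or undifferentiated library 3, nor with a pseudocount of 5 TPM (0.88). FZD4 was not called without somatic differentiated library 1 or 3 or undifferentiated library 2 or 3.

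FZD7 (chromosome 7, 11682384 to 11685456), a receptor abundant in pluripotent cells of other vertebrates, measured 31.3, 14.7 and 14.8 TPM in somatic differentiated libraries and 32.3, 24.4 and 25.4 TPM in undifferentiated libraries. Somatic differentiated library 1 lay within the undifferentiated range. Its log2 change was -0.49, with a 95% interval of -1.22 to 0.24 (limma adjusted p 0.244). FZD3 measured 7.66, 6.83 and 3.99 TPM in somatic differentiated libraries and 12.9, 9.86 and 11.4 TPM in undifferentiated libraries. It did not overlap between groups, and its change was -0.82 (limma adjusted p 0.044) but lay under the minimum. FZD9 measured 16.4, 15.9 and 19.1 TPM in somatic differentiated and 23.4, 19.3 and 23.0 TPM in undifferentiated libraries, a change of -0.34 (95% interval -0.73 to 0.06). FZD10 was low: 0.494, 0.453 and 0.345 TPM in somatic differentiated and 3.60, 1.66 and 1.51 TPM in undifferentiated libraries (-1.13, limma adjusted p 0.0205). The call of FZD10 was lost with a pseudocount of 5 TPM (-0.41) and without somatic differentiated library 2 or 3. Without undifferentiated library 1 the gene was below the minimum for testing. FZD10 reached that minimum through undifferentiated cells alone.

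In sum over the 8 Frizzled genes, TPM was 147, 104 and 152 in somatic differentiated and 115, 79.5 and 96.9 in undifferentiated libraries, and the groups overlapped. The make-up differed more than the sum. FZD6 held 30.6% ± 4.41 of the Frizzled total in somatic differentiated and 18.0% ± 2.35 in undifferentiated cells, FZD7 15.1% ± 5.87 and 28.3% ± 2.24, and FZD9 12.98% ± 2.11 and 22.8% ± 2.10 (SD, n = 3, same order of groups).

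None of the 4 co-receptors and alternative receptors was called. LRP5 (chromosome 5, 16539825 to 16667856), which the table types as a pseudogene, measured 31.3, 40.8 and 19.2 TPM in somatic differentiated libraries and 18.7, 7.35 and 16.0 TPM in undifferentiated libraries. The groups were separated by less than 1 TPM between somatic differentiated library 3 and undifferentiated library 1. The log2 change was 1.095 with a 95% interval of 0.16 to 2.03 (limma adjusted p 0.0644). With median of ratios scaling it was called (1.19, limma adjusted p 0.0211), and so it was without somatic differentiated library 3 (1.38, limma adjusted p 0.0483). LRP6, its paralog, measured 6.66 to 9.53 TPM in somatic differentiated and 2.36 to 6.49 TPM in undifferentiated libraries (0.69, 95% interval -0.12 to 1.51).

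ROR1 and ROR2 are receptor tyrosine kinases that bind WNT5A. ROR1 measured 21.7, 15.8 and 17.7 TPM in somatic differentiated and 13.5, 8.63 and 13.6 TPM in undifferentiated libraries, without overlap, at a change of 0.60 (95% interval 0.05 to 1.16, limma adjusted p 0.0801). ROR2 measured 14.8, 20.4 and 14.3 TPM in somatic differentiated and 26.6, 12.1 and 26.4 TPM in undifferentiated libraries. Undifferentiated library 2 lay below all somatic differentiated values and the other 2 lay above them, so the groups overlapped (-0.31, 95% interval -1.09 to 0.46).

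The secreted antagonists held more transcript than any other secreted class in somatic differentiated cells, most of it DKK3. Of 8 antagonists, 6 were tested: DKK3 and FRZB were called higher, DKK1 was called lower, and SFRP1, SFRP2 and SFRP4 were not called. Shares over all genes tested were 13.2% higher and 7.77% lower. DKK3 (ENSGALG00000005551, chromosome 5, 8397385 to 8419626) measured 485, 665 and 1134 TPM in somatic differentiated libraries, against 133, 129.9 and 123 TPM in undifferentiated libraries. The lowest somatic differentiated value was thus well above the highest undifferentiated one, and the undifferentiated values lay close together. The ratio of means was 5.91 and the log2 change 2.46 (SE 0.29, limma adjusted p 0.00153), and the call held under every alternative that kept the minimum change. DKK3 is a divergent member of its family that, unlike DKK1, is not known as a ligand of LRP6.

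DKK1 (chromosome 6, 10918336 to 10919304), the antagonist that binds LRP6, went the opposite way. Its level was 3.25, 3.25 and 4.15 TPM in the somatic differentiated libraries, against 10.8, 11.7 and 11.5 TPM in undifferentiated libraries, with narrow spreads in both groups. The log2 change was -1.45 (SE 0.19, limma adjusted p 0.00226), and only a pseudocount of 5 TPM brought it under the minimum, at -0.94. KREMEN1, a receptor through which DKK1 removes LRP6 from the surface, is given with the other pathway genes.

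FRZB (chromosome 7, 2337402 to 2352802), also known as SFRP3, measured 316, 206 and 124 TPM in somatic differentiated libraries and 122, 89.6 and 84.2 TPM in undifferentiated libraries. Somatic differentiated library 3 exceeded undifferentiated library 1 only slightly. FRZB was called (log2 change 1.04, limma adjusted p 0.044), but not with any 1 library left out except somatic differentiated library 3, with the lowest value of 0.71 without somatic differentiated library 1. SFRP1 measured 71.1, 163 and 57.8 TPM in somatic differentiated and 54.5, 47.5 and 62.8 TPM in undifferentiated libraries. It overlapped between groups, with somatic differentiated library 2 alone far above the rest (0.67, 95% interval -0.20 to 1.54).

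SFRP2 (chromosome 4, 20063168 to 20067413) measured 27.1, 27.8 and 19.4 TPM in somatic differentiated and 42.5, 46.2 and 41.1 TPM in undifferentiated libraries, with no overlap. Its change was -0.80 (limma adjusted p 0.013) and lay under the minimum. SFRP4 measured 3.02 to 6.32 TPM in somatic differentiated and 2.80 to 3.46 TPM in undifferentiated libraries (0.53, 95% interval -0.14 to 1.20). SFRP5 and WIF1 were not tested, with SFRP5 at 0.0609 to 1.12 TPM and WIF1 lowest at 0.348 TPM in undifferentiated library 3 and highest in somatic differentiated library 1. The 8 antagonists summed to 908, 1072 and 1346 TPM in somatic differentiated and 367, 328 and 327 TPM in undifferentiated libraries, which did not overlap. DKK3 held 66.6% ± 15.9 of that total in somatic differentiated and 37.9% ± 1.62 in undifferentiated cells (SD, n = 3).

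R-spondins, the secreted ligands of the LGR receptors, held the largest fall on the log2(TPM + 1) scale among the Wnt genes. RSPO3 (ENSGALG00000042607, chromosome 3, 59341241 to 59399436) measured 52.7, 76.1 and 92.8 TPM in somatic differentiated libraries, against 281, 357 and 264 TPM in undifferentiated libraries. In undifferentiated cells RSPO3 exceeded every Wnt ligand and every receptor of this set in each library, and in somatic differentiated cells its level was 24.6% of that. The log2 change was -2.04 (SE 0.23, limma adjusted p 0.00136), and RSPO3 was called under every alternative. Without undifferentiated library 2, which here held the highest value, the change was -1.91.

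RSPO2 (chromosome 2, 132071594 to 132172629) measured 3.64, 3.96 and 2.43 TPM in somatic differentiated and 12.2, 6.44 and 10.7 TPM in undifferentiated libraries (log2 change -1.29, limma adjusted p 0.0128). RSPO1 (chromosome 23, 3864606 to 3877239), known for its role in the ovary of other vertebrates, went the other way, at 2.59, 3.54 and 1.62 TPM in somatic differentiated and 0.507, 0.0913 and 0.453 TPM in undifferentiated libraries (1.39, limma adjusted p 0.00928). None of the 3 R-spondins overlapped between groups, but RSPO1 passed the filter through somatic differentiated cells alone. Without overlap, 25% of all genes tested lay higher and 30.6% lower. With a pseudocount of 5 TPM neither RSPO1 (0.50) nor RSPO2 (-0.81) reached the minimum change, and RSPO2 was not called without undifferentiated library 3. RSPO3 held 92.1% ± 3.32 of the R-spondin total in somatic differentiated and 96.6% ± 1.39 in undifferentiated cells (SD, n = 3), so the class total, 79.8 ± 19.3 TPM against 311 ± 46.9 TPM, was set by RSPO3.

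Of the 3 LGR receptors of the R-spondins, 1 was called higher (LGR6), beside 13.2% of all genes tested, and LGR4 and LGR5 were not called. LGR6 (chromosome 26, 429845 to 474775) measured 4.05, 3.94 and 2.99 TPM in somatic differentiated libraries, against 0.367, 0.183 and 0.0870 TPM in undifferentiated libraries, and was called higher (log2 change 1.94, SE 0.22, limma adjusted p 0.00154). Its values were low, and it passed the filter through somatic differentiated cells alone. With a pseudocount of 5 TPM the change was 0.73. LGR5 (chromosome 1, 36352208 to 36436218), a marker of several adult stem cells in mammals, measured 16.1, 1.64 and 5.23 TPM in somatic differentiated and 1.84, 0.700 and 1.43 TPM in undifferentiated libraries. Somatic differentiated library 2 lay within the undifferentiated range, and LGR5 was not called (1.53, 95% interval 0.02 to 3.04, limma adjusted p 0.0959), but it was called without that library (2.18, limma adjusted p 0.0213). LGR4, the most abundant LGR in each library except somatic differentiated library 1, measured 15.9, 14.9 and 12.4 TPM in somatic differentiated and 22.7, 12.3 and 18.9 TPM in undifferentiated libraries (-0.27, 95% interval -0.86 to 0.33).

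**Figure D3:**
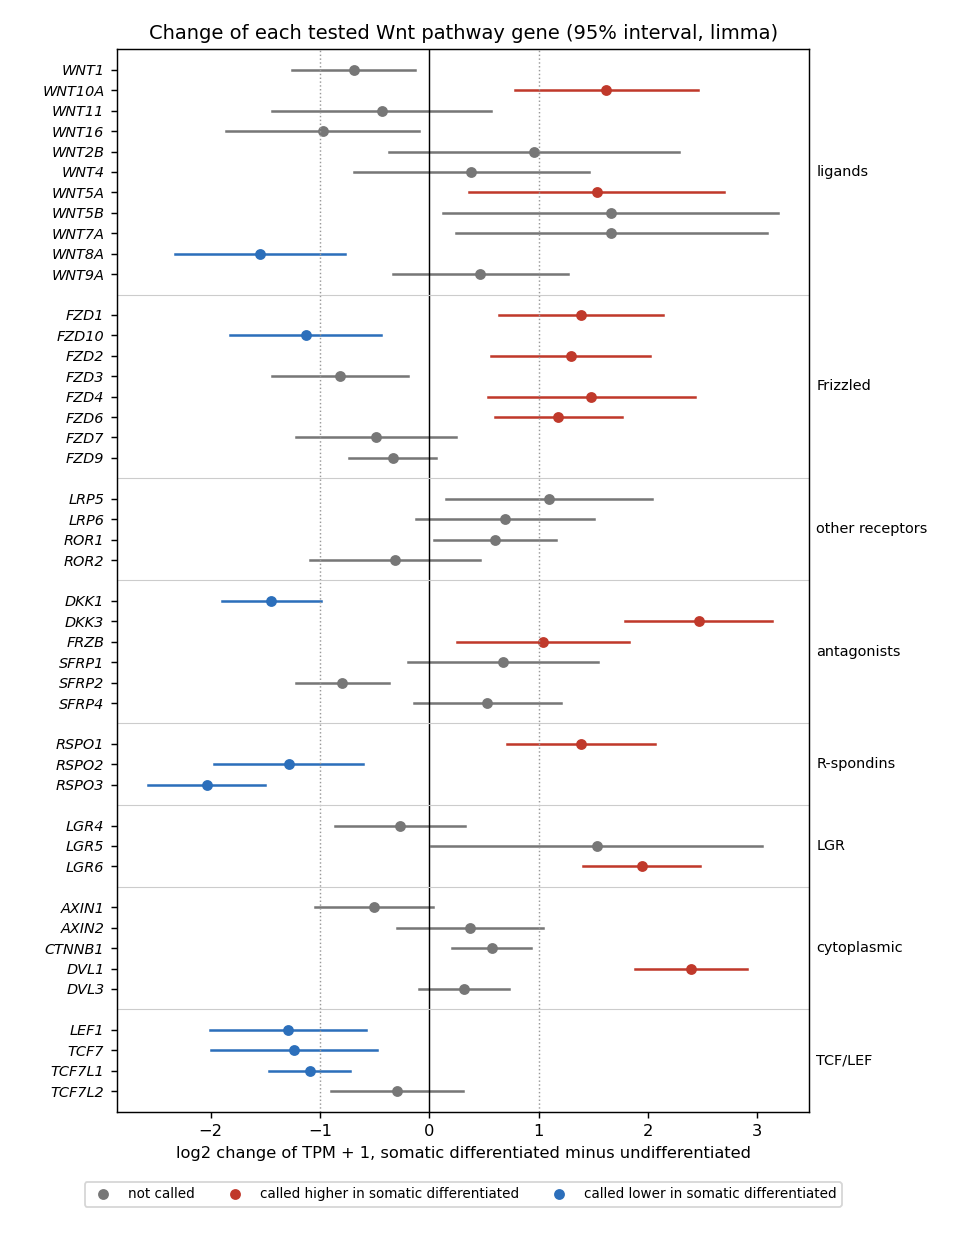
Log2 change of TPM + 1, somatic differentiated minus undifferentiated, with its 95% interval from limma, for the 44 tested Wnt genes. Red marks the 11 called higher, blue the 8 called lower and grey the 25 not called, and dotted lines mark the minimum change of 1. DKK3 (2.46) and DVL1 (2.39) lie farthest to the right and RSPO3 (-2.04) farthest to the left.

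Cytoplasmic components were led by DVL1, a Dishevelled protein that passes the signal on from Frizzled. DVL1 (ENSGALG00000001600, chromosome 21, 2277331 to 2335088) measured 23.0, 20.8 and 20.4 TPM in somatic differentiated libraries, against 4.15, 2.44 and 3.38 TPM in undifferentiated libraries. The values within each group lay close together and the groups were far apart (log2 change 2.39, SE 0.22, limma adjusted p 0.000755), and the call held under every alternative. The gene listed as DVL3 was the more abundant Dishevelled gene in every library, at 109, 132 and 123 TPM in somatic differentiated and 112, 76.5 and 105 TPM in undifferentiated libraries. It overlapped between groups (0.32, 95% interval -0.09 to 0.73). Between the same neighbours, EIF2B5 and AP2M1, the RefSeq gene table of GRCg7b places a gene named DVL2, so the identity of this Dishevelled gene differs between annotations. The gene listed as DVL3 also overlaps EIF2B5 on the same strand, which averaged 53.5 TPM in somatic differentiated and 81.4 TPM in undifferentiated cells.

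CTNNB1, which encodes beta-catenin, was the most abundant of these 5 genes. It measured 382, 355 and 413 TPM in somatic differentiated and 272, 209 and 300.1 TPM in undifferentiated libraries, without overlap, and its change of 0.57 (95% interval 0.21 to 0.93, limma adjusted p 0.0246) lay under the minimum. RNA levels do not measure the beta-catenin protein, which the pathway controls by its stability, and beta-catenin also binds cadherins at cell contacts. AXIN1, a scaffold of the destruction complex, measured 32.6, 35.0 and 25.3 TPM in somatic differentiated and 48.9, 32.5 and 53.5 TPM in undifferentiated libraries (-0.50, 95% interval -1.05 to 0.04). AXIN2, the inducible Axin that is widely read as a target of beta-catenin signalling, measured 13.03, 14.1 and 12.3 TPM in somatic differentiated and 13.2, 6.24 and 11.8 TPM in undifferentiated libraries. Undifferentiated libraries 1 and 3 lay close to the somatic differentiated values (0.37, 95% interval -0.30 to 1.04, limma adjusted p 0.333).

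Of the 4 TCF/LEF factors, which bind DNA and recruit beta-catenin or repressors, 3 were called lower in somatic differentiated cells. The share called lower over all genes tested was 7.77%, and this class holds few genes. TCF7L1 (chromosome 22, 5293801 to 5307833), the family member that mainly represses and that restrains pluripotency in mouse embryonic stem cells, measured 42.4, 52.9 and 45.8 TPM in somatic differentiated libraries, against 108, 85.8 and 111 TPM in undifferentiated libraries. The change of -1.09 (SE 0.16, limma adjusted p 0.00282) just passed the minimum, and with median of ratios scaling it was -0.995. LEF1 (chromosome 4, 37872665 to 37926777), mainly an activator, measured 18.9, 16.7 and 8.53 TPM in somatic differentiated and 41.6, 30.3 and 35.9 TPM in undifferentiated libraries (-1.29, limma adjusted p 0.0147). The call of LEF1 was lost without somatic differentiated library 3, at a change of -0.97, and without undifferentiated library 3.

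TCF7 (chromosome 13, 16620708 to 16679055) measured 7.32, 8.64 and 5.27 TPM in somatic differentiated and 22.1, 11.1 and 22.6 TPM in undifferentiated libraries (-1.24, limma adjusted p 0.0213). The call was lost when somatic differentiated library 1 or 3 or undifferentiated library 1 or 3 was left out, and with a pseudocount of 5 TPM. TCF7 overlaps SKP1 on the opposite strand, a gene at 1022 TPM in somatic differentiated and 875 TPM in undifferentiated cells on average. TCF7L2 measured 57.5, 70.4 and 45.7 TPM in somatic differentiated and 76.8, 50.2 and 89.9 TPM in undifferentiated libraries, overlapped between groups and was not called (-0.30, 95% interval -0.90 to 0.30). It was the most abundant of the 4 in somatic differentiated libraries 1 and 2, and TCF7L1 was the most abundant in every undifferentiated library. TCF7L2 held 45.4% ± 1.98 of the TCF/LEF total in somatic differentiated and 31.3% ± 3.18 in undifferentiated cells (SD, n = 3).

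**Figure D4:**
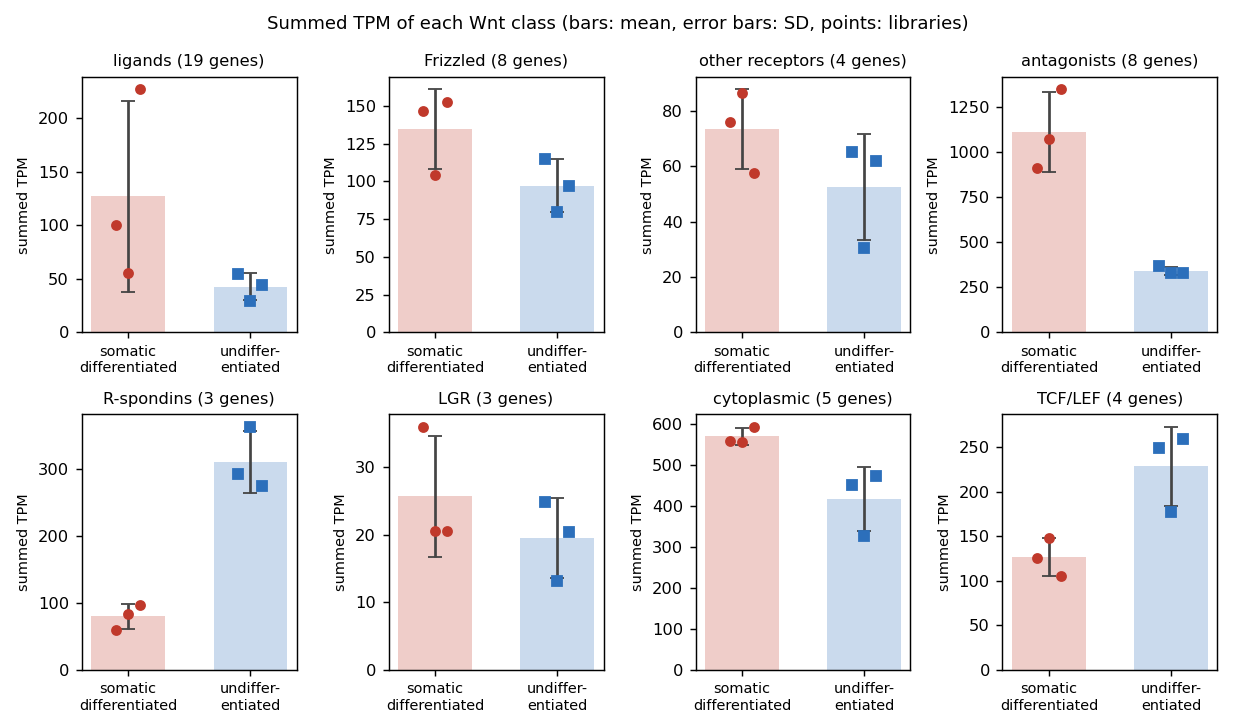
Summed TPM of each class of Wnt genes: bars are means, error bars SD (n = 3) and points libraries, with somatic differentiated cells left and undifferentiated cells right. Antagonists averaged 1108 TPM in somatic differentiated and 341 TPM in undifferentiated cells, of which DKK3 alone averaged 761 and 129 TPM. R-spondins averaged 79.8 and 311 TPM, and TCF/LEF factors 127 and 229 TPM.

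The 8 genes called lower stood in somatic differentiated cells at 18.4% (WNT8A) to 46.2% (TCF7L1) of their undifferentiated level. Of these, WNT8A and FZD10 (19.1%) had a mean of at least 1 TPM in undifferentiated cells alone, so the filter favoured low percentages. The other 6 lay at 24.6% (RSPO3) or above. Germ cell genes stood in somatic differentiated cells at 19.9% to 48.0%, with a median of 29.3% over 10 genes. These include DDX4, DAZL and NANOG, and all 10 were called lower. The minimum change for a call limits the range of the Wnt genes at its upper end. The germ cell range covers all 10 listed genes, whatever their call. Of 12 mesenchymal genes, 11 were called higher and all 12 lay higher without overlap, among them VIM and TWIST1. The part of either list's cells in the Wnt changes was not tested.

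Markers of 4 other cell types had higher mean sums in somatic differentiated than in undifferentiated cells, all far under those of the mesenchymal genes. The 6 listed erythroid genes summed to 20.1, 3.34 and 4.79 TPM in somatic differentiated and 0.380 to 1.42 TPM in undifferentiated libraries, and the 1 gene tested was not called. That gene, the globin HBE, measured 18.0, 1.44 and 2.97 TPM in somatic differentiated and 0.213 to 1.04 TPM in undifferentiated libraries. The globin HBBA, not tested, measured 1.71 to 1.77 TPM in somatic differentiated libraries and was listed at 0 in undifferentiated ones, and HBA1 was listed at 0 everywhere. The 6 listed leukocyte genes summed to 10.1 to 19.4 TPM in somatic differentiated and 9.95 to 12.9 TPM in undifferentiated libraries, and none of the 4 tested was called. CSF1R, not tested, measured 1.10 to 2.01 TPM in somatic differentiated and 0.0870 to 0.137 TPM in undifferentiated libraries, without overlap, and SPI1 was at or under 0.0659 TPM in somatic differentiated libraries and listed at 0 in undifferentiated ones. The 8 endothelial genes summed to 73.1 to 114 TPM in somatic differentiated and 16.6 to 27.5 TPM in undifferentiated libraries. CDH5, ERG and EGFL7 were called higher and KDR lower, while VWF, TIE1 and TEK were at or under 0.927 TPM in all libraries. PECAM1 overlapped between groups and was not called (log2 change -0.02). CDH5 measured 12.5, 91.0 and 31.9 TPM in somatic differentiated libraries, so it held most of the endothelial sum in library 2. The 8 gonadal somatic genes summed to 27.9 to 77.7 TPM in somatic differentiated and 15.97 to 29.02 TPM in undifferentiated libraries, most of it SOX9 and LHX9, with NR5A1, AMH, GATA4 and CYP19A1 at or under 0.857 TPM. Of the 3 tested, LHX9 and FOXL2 were called higher. FOXL2 passed the filter through somatic differentiated cells alone (means of 2.11 TPM in somatic differentiated and 0.181 TPM in undifferentiated cells), so its call is not independent of the filter. The part of these cells' RNA in the Wnt changes was not tested.

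A further list of 88 pathway genes outside the 54 covered Wnt secretion, membrane modifiers, other secreted inhibitors, the destruction complex, nuclear cofactors, planar polarity and target genes. Of these, 77 were listed in the table and 74 tested: 12 were called higher, 6 lower and 56 not called, at a median log2 change of 0.06. The called shares were 16.2% higher and 8.11% lower, near the 13.2% and 7.77% of all genes tested. SOST (means of 3.27 TPM in somatic differentiated and 0.663 TPM in undifferentiated cells) and ADGRA2 (4.33 and 0.935 TPM) were called higher. CDX2 was called lower. Each reached the minimum through the group where it was high, so its call is not independent of the filter. Without undifferentiated library 2 the counts were 8 higher and 13 lower, and those over all genes 1423 and 1467. No gene for secretion or for the destruction complex was called. By adjusted p alone, TRABD2B (log2 change -0.83, limma adjusted p 0.0258) and CSNK1G1 (-0.69, limma adjusted p 0.0162) passed as lower. CSNK1A1 (0.60, limma adjusted p 0.0266) passed as higher. WLS, the carrier that brings Wnt proteins to the surface, measured 171, 152 and 299 TPM in somatic differentiated and 138, 85.5 and 112 TPM in undifferentiated libraries (0.84, limma adjusted p 0.0542), and was picked for mention after its value was seen.

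KREMEN1 (chromosome 15, 8093227 to 8111255), the DKK1 receptor named above, had the largest rise in this list on the log2(TPM + 1) scale, whereas by the ratio of means MSX2 rose more (16.8 against 13.8 for KREMEN1). It measured 144, 167 and 229 TPM in somatic differentiated and 12.6, 11.4 and 15.2 TPM in undifferentiated libraries, far from overlapping (log2 change 3.67, SE 0.21, limma adjusted p 0.00023). MSX2, a homeobox gene that BMP signals also induce, measured 45.4, 41.8 and 125 TPM in somatic differentiated and 3.66, 4.63 and 4.39 TPM in undifferentiated libraries (3.60, limma adjusted p 0.00147). MYC, a growth regulator with many inputs besides Wnt, measured 121, 56.1 and 78.8 TPM in somatic differentiated and 22.97, 9.77 and 14.97 TPM in undifferentiated libraries (2.36, limma adjusted p 0.00377). All 3 were separated between groups. IGFBP4, an IGF-binding protein that also binds Frizzled and LRP6, rose by 2.17 (limma adjusted p 0.0132). It measured 60.1, 33.9 and 154 TPM in somatic differentiated and 14.7, 14.8 and 13.7 TPM in undifferentiated libraries. NFATC1, a calcium-regulated transcription factor, rose by 1.95 (limma adjusted p 0.0108). Its values were 23.5, 7.70 and 13.3 TPM in somatic differentiated and 2.80, 1.75 and 4.04 TPM in undifferentiated libraries.

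The 5 largest changes among pathway genes called lower were those of TBXT, CDX2, CELSR2, SP5 and TBX6. TBXT (brachyury, a transcription factor of the primitive streak, chromosome 3, 43047577 to 43055477) measured 5.32, 5.03 and 4.20 TPM in somatic differentiated libraries, against 36.8, 15.3 and 35.4 TPM in undifferentiated libraries (log2 change -2.27, SE 0.35, limma adjusted p 0.00346). CDX2, which the table types as a pseudogene, measured 0.503 to 0.902 TPM in somatic differentiated and 3.35 to 7.75 TPM in undifferentiated libraries (-1.85, limma adjusted p 0.00437). SP5, a direct target of beta-catenin and TCF factors in vertebrate embryos, measured 4.89, 2.87 and 4.07 TPM in somatic differentiated and 18.3, 10.6 and 16.0 TPM in undifferentiated libraries (-1.68, limma adjusted p 0.00437). For these 3 genes the groups did not overlap. TBX6 was called lower as well (-1.60, limma adjusted p 0.0438) but overlapped between groups, with 9.53 TPM in somatic differentiated library 3 and 8.98 TPM in undifferentiated library 2. CELSR2, a planar polarity cadherin, fell by 1.75 on the log2 scale, and VANGL2, the sixth gene called lower, by 1.25. CELSR2 measured 5.98, 7.13 and 4.53 TPM in somatic differentiated and 29.0, 13.1 and 27.4 TPM in undifferentiated libraries.

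The feedback and target genes moved in both directions. Of 13 tested, 3 were called higher (MSX2, MYC and TNFRSF19), 4 lower (TBXT, CDX2, SP5 and TBX6) and 6 were not called. The uncalled genes include the feedback inhibitors NKD1, ZNRF3, NOTUM and APCDD1. The called shares were 23.1% higher and 30.8% lower, beside 13.2% and 7.77% of all genes tested, but they rest on few genes. CDX2 passed the filter through undifferentiated cells alone (means of 0.738 TPM in somatic differentiated and 5.47 TPM in undifferentiated cells), and TBX6 overlapped between groups. NKD1 measured 31.6 to 50.5 TPM in somatic differentiated and 12.8 to 47.2 TPM in undifferentiated libraries, and ZNRF3 5.90 to 7.48 TPM and 3.24 to 9.17 TPM. In both cases the groups overlapped. AXIN2, among the 54, was not called either. The feedback inhibitors of this list were named after their values were seen. Among the 54, LEF1 and TCF7, which are themselves targets, were called lower. So was the antagonist DKK1 (log2 change -1.45, limma adjusted p 0.00226). LEF1, TCF7 and DKK1 were picked here after their values were seen, and the other members of the 54 were not sorted into targets and the rest. Of the 44 tested, 11 were called higher and 8 lower. Whether Wnt targets fell as a set was not tested.

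**Figure D5:**
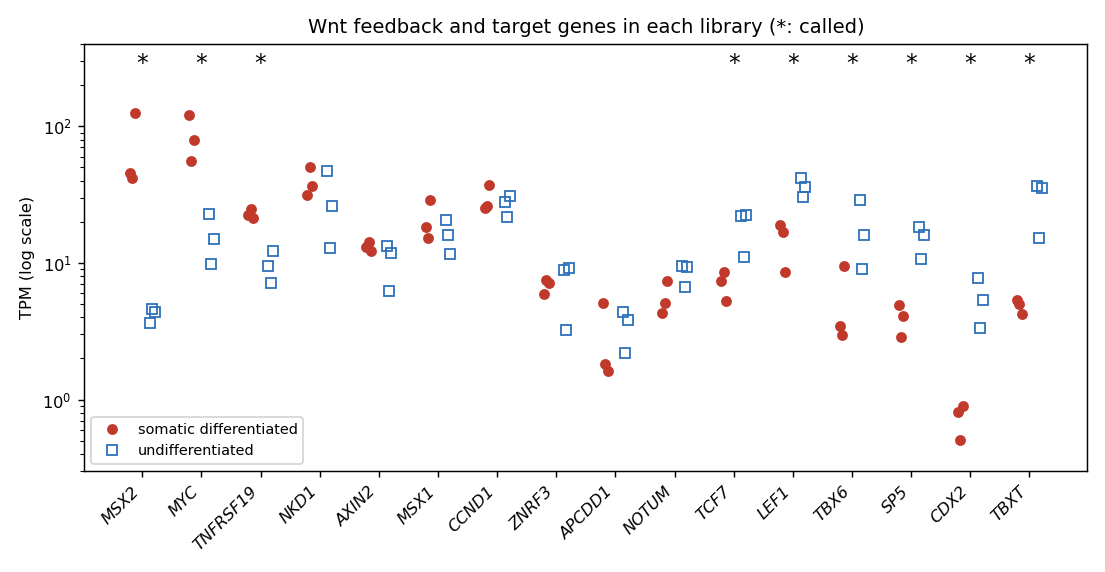
TPM on a log scale of the 13 tested feedback and target genes together with AXIN2, LEF1 and TCF7, ordered by log2 change. Red circles are somatic differentiated and open blue squares undifferentiated libraries, and an asterisk marks a called gene. MSX2 lies at 41.8 to 125 TPM in somatic differentiated and 3.66 to 4.63 TPM in undifferentiated cells, TBXT at 4.20 to 5.32 TPM and 15.3 to 36.8 TPM, and AXIN2 overlaps.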

How the data were processed

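The authors deposited 1 table with a TPM value for each gene and library, and the name of the table credits RSEM. Per the submitters' processing notes, FastQC 0.11.9, Trimmomatic 0.39, Trim Galore 0.6.6, cutadapt 3.1, STAR 2.7.3a and RSEM 1.3.1 were used with the build GRCg6a. Their roles and settings, the strand setting and the annotation release were not stated there. All 6 value columns matched sample descriptions, and 0 were left unmapped.

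From these values, limma 3.58.1 in R 4.3.3 was fitted on log2(TPM + 1) without covariates and with a variance trend. Tables and plots were made with Python 3.11.15, pandas 2.3.3, numpy 2.4.6 and matplotlib 3.10.9. The code was tested on simulated data. Wnt genes called, or with a mean of at least 10 TPM in a group, were given by library. Up to 5 called pathway genes in each direction were named by size of change. Other genes were named after their values were seen. The members and lists were chosen with earlier results of these data known. Gene symbols not in the table were sought in RefSeq. It also gave the name DVL2 between the neighbours of the gene listed as DVL3. No printed coordinate came from RefSeq. Alternatives changed the pseudocount, filter, scaling, variance trend, library weights, minimum change and replicate block, and left out each library.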

Additional observations from a re-analysis of the deposited data

How the results depend on the processing

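With all libraries, 11 Wnt genes were called higher and 8 lower, and 12 and 6 of the pathway list. A pseudocount of 5 TPM moved these to 6 and 3 Wnt genes and to 6 pathway genes called higher, and the genes called lower overall to 529, against 1010. With no minimum change, 2854 genes overall and 13 pathway genes were called lower. With array weights, whose iteration stopped before its tolerance, 12 pathway genes were called lower. Leaving out 1 library gave 7 to 12 Wnt genes called higher, 5 to 9 lower and 5 to 13 pathway genes called lower. The 13 came without undifferentiated library 2. Without somatic differentiated library 1, or undifferentiated library 2 or 3, 7 Wnt genes were called higher. Without somatic differentiated library 3 or undifferentiated library 3, 5 were called lower. The cause of these shifts was not tested, and leaving out a library also lowers the number of libraries.

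Of the 19 Wnt genes called, 4 (FZD1, DKK3, RSPO3 and DVL1) were called under all 15 alternatives that kept the minimum change, 15 lost the call under at least 1, and 0 changed direction. A pseudocount of 5 TPM ended 10 calls. Among genes not called, WNT4 (0.38) ranged between -0.067 without somatic differentiated library 1 and 0.85 without somatic differentiated library 2. The summed TPM of the LGR receptors differed between groups by 6.24, and by 1.07 without somatic differentiated library 1 and 3.08 without undifferentiated library 2. For the co-receptors it was 20.9, and 9.81 without undifferentiated library 2.

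Same-numbered libraries did not deviate together in every pair: the correlations of their deviations from the group means were 0.192, 0.0131 and 0.14. The somatic differentiated libraries 1 and 3 each correlated best with the undifferentiated library of the same number. Somatic differentiated library 2 correlated best with undifferentiated library 3 (0.112). With the replicate block, 14 Wnt genes were called higher and 8 lower; 19 of the 19 calls were kept, and WNT5B, WNT7A and LGR5 were added.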
